A study of Mus musculus with 6 samples.

Results

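*Runx2*, *Runx1*, *Cbfb*, *Sp7*, *Dlx3*, *Dlx5*, *Msx1*, *Msx2* and *Twist1* are transcription factor genes, or in the case of *Cbfb* a partner gene, of the osteoblast lineage. They were chosen by name for what is known of their place in that lineage, with earlier results of these data known. All 9 were among the 24016 mouse genes measured. The cells were wild-type MC3T3-E1 subclone 4, a clonal preosteoblast line from mouse calvaria, so all libraries came from the descendants of a single clone and not from animals. All cultures were differentiated for 6 days with ascorbic acid (50 µg/ml) and β-glycerophosphate (10 mM), and the sample labels list 10 nM calcitriol, the active form of vitamin D, in the treatment medium. Each of 3 cultures then received vehicle and each of 3 received corticosterone (100 nM), the main glucocorticoid of mice, for 24 h. The comparison shows how the transcripts of these factors stood in osteoblasts after a day of glucocorticoid. Values are normalized counts, which are read counts divided by a size factor of the library.

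RUNX2 is the factor without which osteoblasts do not form. RUNX proteins bind DNA through a shared Runt domain and are stabilised on it by CBFβ, which does not itself contact DNA. SP7, also called osterix, is needed after RUNX2 for preosteoblasts to become osteoblasts, and osteoblasts start to deposit and mineralise matrix under their joint control. The homeodomain proteins DLX3, DLX5, MSX1 and MSX2 bind related AT-rich sites in skeletal genes, where DLX proteins are mostly known as activators and MSX proteins as repressors. TWIST1, a basic helix-loop-helix protein, holds RUNX2 back in early progenitors. Glucocorticoids act through a nuclear receptor and, at high or lasting doses, are known to lower bone formation.

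The distal promoters of *Runx2* and *Runx1* are shown first, since these related genes moved in opposite directions. Promoter sequences from RefSeq (GRCm38.p6), running from 250 bases before to 50 bases after a transcription start, were given for 6 of the 9 genes in 7 windows. Both strands of each window were searched for ACCACA, a core that RUNX proteins bind, which was present in 16.8% of all 32851 windows. The *Runx2* window held 3 copies, starting at bases -80, 24 and 32 from the start, and the distal *Runx1* window held 2 copies, starting at bases 29 and 37. The other 5 windows, those of *Cbfb*, *Msx1*, *Msx2*, *Twist1* and the proximal start of *Runx1*, held none, and 1.81% of all windows held 2 or more. In the stretches below, printed 5′ to 3′ on the minus strand on which both genes lie, capitals mark ACCACA. The *Runx2* stretch lies at chr17:44814583-44814612 and the *Runx1* stretch at chr16:92826025-92826054.
Runx2: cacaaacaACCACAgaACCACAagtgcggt
Runx1: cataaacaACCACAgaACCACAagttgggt
Both stretches lie in an exon of their own gene, in the part annotated as UTR, and the *Runx2* stretch also lies within the span of *Supt3* on the opposite strand. The longest run that both windows share is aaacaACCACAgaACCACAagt, of 22 bases, which was present in 2 of the 32851 windows, those of *Runx2* and *Runx1*. A core of the glucocorticoid response element, AGAACA, was absent from all 7 windows and present in 19.0% of all windows. TAATTG, a homeodomain core, was likewise in 0 of the 7 and in 8% of all. GGGCGG, the GC box bound by SP proteins, was found 4 times in the *Cbfb* window and 1 time each in those of *Msx1*, *Msx2* and *Twist1*, against 35.7% of all windows. The printed stretches were picked as those with the most copies of ACCACA, and the shared run as the longest common to both genes. Its presence in those 2 windows was therefore fixed by the choice. All matches given here are of letters in short windows and say nothing of binding.

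Across the 9 genes, *Runx2*, *Sp7* and *Dlx3* fell more than 2-fold with corticosterone, *Dlx5* and *Twist1* fell by less, and *Runx1* and *Msx2* rose. *Cbfb* and *Msx1* did not pass the test. With limma and Benjamini-Hochberg adjustment over all genes, 3 of the 9 were lower and 0 were higher past both thresholds, which were an adjusted p under 0.05 and a log2 change of more than 1 in size. Of all genes tested 2.78% passed both, 1.40% being lower and 1.38% higher. For the higher direction, limma, edgeR and DESeq2 each found 0 of the 9 past both thresholds, while each found 2 at an unadjusted p under 0.05. At an adjusted p under 0.05 alone, 5 were lower and 2 higher, against 8.20% and 8.49% of all genes (16.7% in either direction). In 6 genes all corticosterone libraries lay below all vehicle libraries and in 2 they lay above, against 14.9% and 14.7% of all genes (29.6% in either direction). Well-measured genes passed the test more often: of the 12133 genes with a mean of at least 30 normalized counts, 30.6% had an adjusted p under 0.05 and 3.04% passed both thresholds. The median log2 fold change was -0.39 over the 9 genes and -0.01 over all 24016. For a single gene the exact permutation test of 3 against 3 libraries cannot give a two-sided p below 0.1, and it gave 0.1 for each gene except *Msx1*, for which it gave 0.2.

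**Figure D1:**
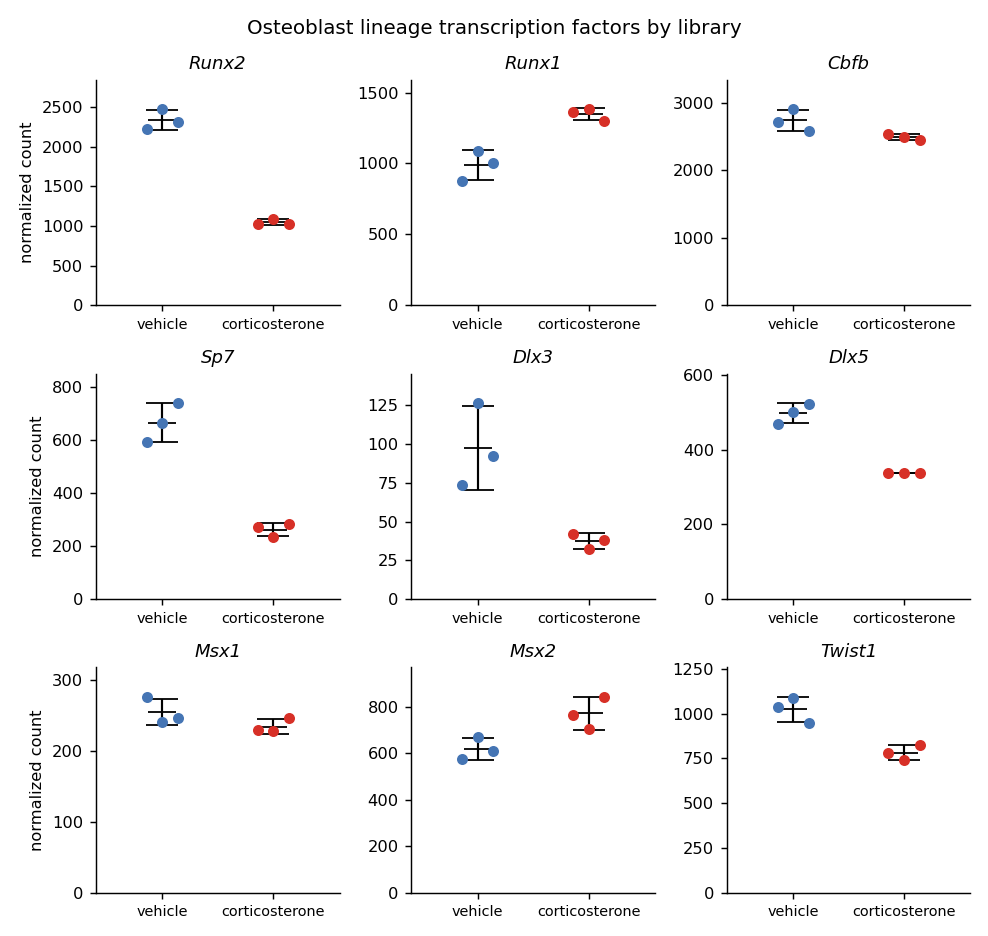
Normalized counts of the 9 genes in each library (y axis, linear, with its own range for each gene), with points for the 3 vehicle and 3 corticosterone libraries. The corticosterone libraries lie below the vehicle libraries in 6 genes and above them in *Runx1* and *Msx2*, and the groups overlap in *Msx1*.

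The libraries held 16020401 to 25638645 reads, and each corticosterone library held fewer than any vehicle library. Libraries of the same treatment differed by 3.38 to 12.2 times the counting error (chi-square per degree of freedom over genes) and libraries of different treatments by 30.7 to 42.7 times. No library was a copy of another. A gene of which 3 reads were counted has a normalized count of 2.32 to 3.84, far below all values of the 9 genes. The part of read depth in the results was not tested. Since these are bulk libraries, a lower share of cells that express a gene and less of its RNA per cell cannot be told apart.

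*Runx2* (ENSMUSG00000039153) lies on the minus strand of chromosome 17, from 44495987 to 44814797 of GRCm38. Vehicle libraries had 2227, 2477 and 2312 normalized counts, and corticosterone libraries 1027, 1092 and 1029. The groups lay far apart, and the corticosterone libraries were close to each other. The mean went from 2339 ± 127 to 1049 ± 37.3 (SD, n = 3 each), which left 44.9% of the vehicle level. On the log2(value + 0.1) scale it fell by 1.16 (SE 0.05, 95% confidence interval -1.27 to -1.04, limma adjusted p = 1.6e-10). These values rest on 804 to 3209 reads per library. Several genes share its ground. *Supt3*, which encodes a subunit of the SAGA coactivator complex and starts inside *Runx2* on the other strand, had a mean of 239 normalized counts with vehicle and 275 with corticosterone (limma adjusted p = 0.23). The antisense genes *Runx2os1* (6.95 and 7.24) and *Runx2os2* (2.89 and 4.31) had mean levels close to the floor. Whether the counting used strand is not given in the sources used here, so reads from overlapping stretches of these genes cannot be told apart.

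*Runx1*, the RUNX gene best known from blood formation and also expressed in skeletal progenitors, went the other way. It lies on the minus strand of chromosome 16, from 92601466 to 92826149. Its normalized counts were 878, 1084 and 1000.2 with vehicle and 1361, 1383 and 1298 with corticosterone, so every corticosterone library was above every vehicle library. Means were 988 ± 104 and 1347 ± 43.7 (SD, n = 3 each). The log2 fold change was 0.45 (SE 0.07, 95% confidence interval 0.31 to 0.60, limma adjusted p = 1.3e-04). With no variance trend in limma the adjusted p was 0.076. *Cbfb*, whose product pairs with each RUNX protein, lies on the plus strand of chromosome 8, from 105170674 to 105217989. It stood at 2719, 2902 and 2585 with vehicle and at 2535, 2484 and 2452 with corticosterone. The groups lay apart, but by little, at 2735 ± 159 and 2491 ± 41.8 (SD, n = 3 each). The log2 fold change was -0.13 (SE 0.05, 95% confidence interval -0.24 to -0.03, limma adjusted p = 0.075), and in 7 of 14 other settings the adjusted p was under 0.05.

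*Runx3*, the remaining RUNX gene, was level at 476 and 484 normalized counts (log2 fold change 0.03, 95% confidence interval -0.13 to 0.18, limma adjusted p = 0.88). Levels of different genes were compared per kilobase of the gene's merged annotated exons. On that scale *Runx1*, *Runx2* and *Runx3* together summed to 442 ± 28.0 with vehicle and 327 ± 7.46 with corticosterone (SD, n = 3 each), and *Cbfb* to 786 ± 45.8 and 716 ± 12.0. The share of *Runx2* in the sum was 61.1%, 59.8% and 58.9% with vehicle and 35.3%, 37.0% and 36.5% with corticosterone. *Runx1* made up 18.6% ± 0.79 and then 34.2% ± 0.34 (SD, n = 3 each), and *Runx3* 21.5% ± 0.76 and 29.5% ± 0.96. *Runx2* thus made up most of the RUNX transcripts with vehicle and about as much as *Runx1* with corticosterone. The shares depend on which transcript lengths are assumed: with each gene's longest transcript, *Runx2* made up 55.5% and then 31.4%, and *Runx1* 25.8% and then 44.5%. The ratio of the RUNX sum to *Cbfb* per kilobase was 0.563 ± 0.035 with vehicle and 0.458 ± 0.0086 with corticosterone (SD, n = 3 each, exact permutation p = 0.1). *Cbfb* transcripts stood above the RUNX sum in every library.

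**Figure D2:**
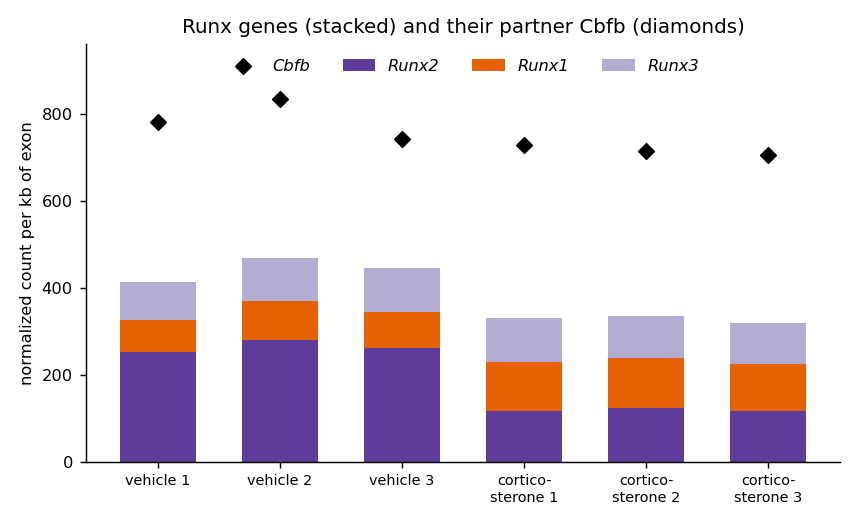
Normalized count per kilobase of merged exons (y axis) of *Runx1*, *Runx2* and *Runx3*, stacked in a bar for each library, with *Cbfb* as diamonds. The *Runx2* part shrinks from 58.9% to 61.1% of the bar with vehicle to 35.3% to 37.0% with corticosterone, while *Cbfb* stays above the stack in all 6 libraries.

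*Sp7* (ENSMUSG00000060284, chromosome 15, 102356606 to 102367182, minus strand) also fell. Its normalized counts were 593, 662 and 739.6 with vehicle and 271, 234 and 281 with corticosterone, with no overlap. Means were 665 ± 73.4 and 262 ± 24.8 (SD, n = 3 each). It fell by 1.34 on the log2 scale (SE 0.09, 95% confidence interval -1.54 to -1.15, limma adjusted p = 2.0e-08). The next gene of its family along the chromosome is *Sp1*, a broadly expressed SP factor that lies 38.96 kb away. *Sp1* stood at 1871 ± 69.9 and 1746 ± 63.6 normalized counts (SD, n = 3 each, log2 fold change -0.10, limma adjusted p = 0.22).

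Both DLX genes fell. *Dlx3* (ENSMUSG00000001510, chromosome 11, 95120119 to 95125296, plus strand) is also known from hair, tooth and bone disorders when mutated. It had the lowest level of the 9 genes and the widest spread. Its normalized counts were 73.8, 127 and 92.1 with vehicle and 41.8, 32.0 and 38.4 with corticosterone, from 29 to 164 reads. The vehicle libraries spread widely, with replicate 2 the highest, yet all lay above the corticosterone libraries. Means were 97.5 ± 26.8 and 37.4 ± 4.94 (SD, n = 3 each). It fell by 1.35 on the log2 scale (SE 0.22, 95% confidence interval -1.81 to -0.89, limma adjusted p = 2.4e-04). Leaving out each library in turn moved this from -1.54 to -1.15. *Dlx5* (ENSMUSG00000029755, chromosome 6, 6877805 to 6882085, minus strand), an activator that acts upstream of *Sp7*, changed less but with little spread. Its normalized counts were 470.3, 502 and 524 with vehicle and 339, 338 and 339 with corticosterone. Means were 499 ± 27.2 and 339 ± 0.738 (SD, n = 3 each), and the log2 fold change was -0.56 (SE 0.07, 95% confidence interval -0.71 to -0.40, limma adjusted p = 2.8e-05). Its neighbour *Dlx6*, which lies 9.236 kb away on the opposite strand, had 84.3, 71.0 and 82.7 normalized counts with vehicle and 42.8, 54.1 and 47.3 with corticosterone. It fell by 0.72 on the log2 scale (SE 0.18, limma adjusted p = 0.011). The adjusted p of *Dlx6* was 0.057 without vehicle replicate 1 and 0.068 without vehicle replicate 3, and 0.13 in DESeq2 with the replicate number as a block.

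The MSX genes did not move together. *Msx1* (chromosome 5, 37820485 to 37824583, minus strand) had 277, 242 and 247 normalized counts with vehicle and 229, 228 and 247 with corticosterone. The groups overlapped. Means were 255 ± 18.8 and 235 ± 10.8 (SD, n = 3 each), and the log2 fold change of -0.12 had a 95% confidence interval of -0.32 to 0.08 (limma adjusted p = 0.47). *Msx2* (chromosome 13, 53466884 to 53473074, minus strand) had 577, 671 and 609 with vehicle and 766, 705 and 843 with corticosterone. All corticosterone libraries lay above the vehicle libraries, the nearest of them by a small margin. Means were 619 ± 48.2 and 771 ± 69.4 (SD, n = 3 each), and the log2 fold change was 0.32 (SE 0.08, 95% confidence interval 0.15 to 0.48, limma adjusted p = 0.0073). The call for *Msx2* rested on single libraries: its adjusted p was 0.067 without vehicle replicate 1, 0.10 without vehicle replicate 3 and 0.093 without corticosterone replicate 3. With no variance trend it was 0.19.

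*Twist1* (chromosome 12, 33957671 to 33959829, plus strand) had 1037, 1087.5 and 949 normalized counts with vehicle and 783, 741 and 823 with corticosterone. The groups lay apart. Means were 1024 ± 70.4 and 782 ± 40.7 (SD, n = 3 each), and the log2 fold change was -0.39 (SE 0.06, 95% confidence interval -0.52 to -0.25, limma adjusted p = 3.2e-04). With no variance trend the adjusted p was 0.073. Its paralog *Twist2* stood near the floor, at 9.62 and 8.30 normalized counts.

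**Figure D3:**
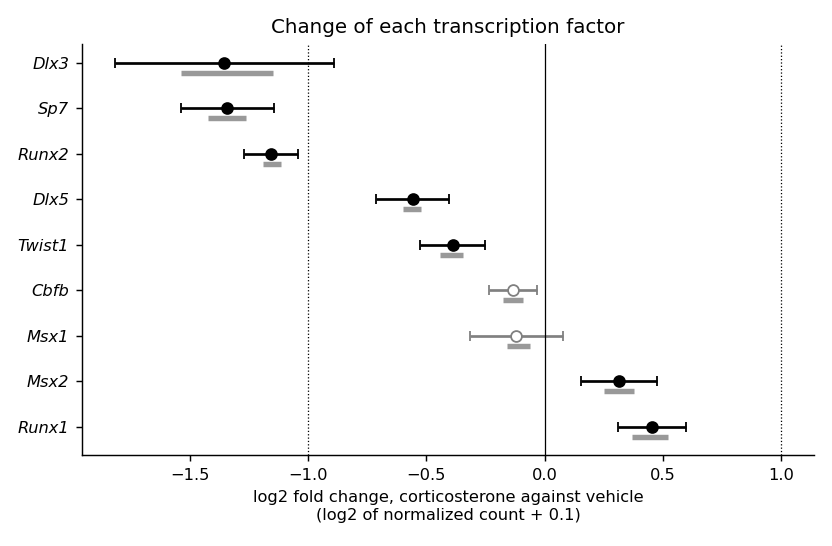
Log2 fold change of corticosterone against vehicle (x axis) for each of the 9 genes, with points for the limma estimate and bars for its 95% confidence interval. *Runx2*, *Sp7* and *Dlx3* lie beyond a log2 fold change of -1, and *Runx1* and *Msx2* lie to the right of 0.

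Within-library ratios do not depend on the scaling of a library, and 5 pairs were compared. The log2 ratio of *Runx2* to *Runx1* was 1.34, 1.19 and 1.21 with vehicle and -0.41, -0.34 and -0.34 with corticosterone. Its means differed by -1.61 on the log2 scale (exact permutation p = 0.1, 0.125 after adjustment over the 5 pairs). The sign of this ratio has no meaning for levels, since the counts carry no correction for gene length. Per kilobase of merged exons, the plain ratio of *Runx2* to *Runx1* was 3.23 with vehicle and 1.06 with corticosterone. With the longest transcripts as lengths it was 2.16 and 0.706. Against its partner *Cbfb*, *Runx2* went from a mean log2 ratio of -0.23 ± 0.06 to -1.25 ± 0.06 (SD, n = 3 each). By contrast, the ratio of *Sp7* to *Runx2* was -1.82 ± 0.15 and -2.00 ± 0.19 (SD, n = 3 each), and the groups overlapped, with an exact permutation p of 0.4. *Dlx3* to *Dlx5* went from -2.39 ± 0.36 to -3.18 ± 0.19, and *Msx1* to *Msx2* from -1.28 ± 0.21 to -1.71 ± 0.07 (SD, n = 3 each), both without overlap and both at an exact permutation p of 0.1. No ratio could pass the threshold, since 0.1 is the smallest p this design allows.

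**Figure D4:**
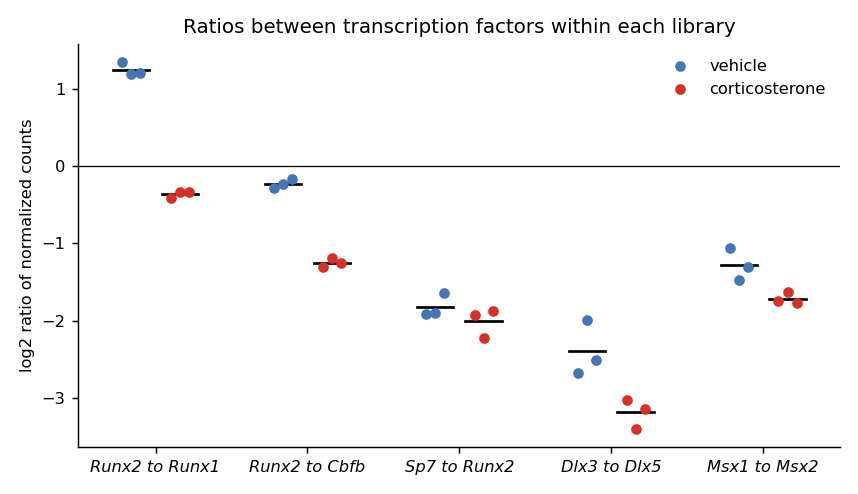
Log2 ratio of normalized counts within each library (y axis) for 5 pairs of genes, with points for the 3 vehicle and 3 corticosterone libraries. *Runx2* to *Runx1* is lower with corticosterone, and *Sp7* to *Runx2* is the pair whose groups overlap. The counts are not corrected for gene length, so the sign of a ratio has no meaning for levels.

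Per kilobase of merged exons, the vehicle order was *Cbfb* (786), *Twist1* (629), *Runx2* (265), *Dlx5* (221), *Sp7* (196), *Msx2* (189), *Msx1* (82.4), *Runx1* (82.1) and *Dlx3* (37.4). The libraries of *Dlx5* and *Sp7* overlapped on this scale, as did those of *Sp7* and *Msx2* and those of *Msx1* and *Runx1*, so the order within those pairs was not resolved. With corticosterone the order was *Cbfb* (716), *Twist1* (480), *Msx2* (235), *Dlx5* (149.7), *Runx2* (119), *Runx1* (112), *Sp7* (77.2), *Msx1* (75.7) and *Dlx3* (14.3). There only *Sp7* and *Msx1* overlapped. *Msx2* thus stood below *Runx2* and *Dlx5* with vehicle and above both with corticosterone, also with the longest transcripts as lengths. With the longest transcript of each gene as its length, *Runx1* (229.9) stood above *Runx2* (162) with corticosterone, so their order rests on the lengths assumed.

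Of 15 paralogs of these genes, 13 were measured. None passed both thresholds in either direction with limma, edgeR or DESeq2, and each tool found 2 lower and 0 higher at an unadjusted p under 0.05. At an adjusted p under 0.05, 2 were lower (*Dlx6* and *Sp8*) and 0 were higher, against 8.20% and 8.49% of all genes. Of genes with a mean of at least 30, 30.6% passed in either direction. The median log2 fold change of the 13 was -0.15. *Sp8*, which is known from limb outgrowth, went from 60.0 ± 1.01 to 34.6 ± 3.68 normalized counts (SD, n = 3 each, log2 fold change -0.80, limma adjusted p = 0.013), and its adjusted p was 0.052 without vehicle replicate 3. In DESeq2 with the replicate block it was 0.14, so that 0 of the paralogs then passed. Better expressed paralogs moved little: *Sp3* had a log2 fold change of -0.05, *Dlx2* of 0.16 and *Dlx1* of -0.15, none of which passed the test.

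Among 18 other transcription factors of bone, 17 were measured, with a median log2 fold change of -0.32. At an adjusted p under 0.05, 7 were lower and 4 higher, against 8.20% and 8.49% of all genes. Of genes with a mean of at least 30, 30.6% passed in either direction. *Lef1*, a nuclear effector of Wnt signalling, was the gene past both thresholds. Its normalized counts were 60.8, 74.1 and 64.1 with vehicle and 11.8, 18.8 and 19.2 with corticosterone. It fell by 2.02 on the log2 scale (SE 0.27, limma adjusted p = 4.5e-05), from 11 to 96 reads per library. *Tcf7*, its relative in the same pathway, fell by 0.82 (from 392.5 ± 60.8 to 221 ± 19.4 normalized counts, SD, n = 3 each). Factors of mesenchymal progenitors fell by less: *Prrx1* had a log2 fold change of -0.40, *Six2* of -0.43 and *Trps1* of -0.48. *Atf4*, a stress-response factor that osteoblasts use for amino acid supply, rose by 0.29 (from 2786 ± 168 to 3409 ± 90.5 normalized counts, SD, n = 3 each), with an adjusted p of 3.6e-04 that became 0.099 with no variance trend. The 4 higher genes became 2 without vehicle replicate 1, vehicle replicate 3 or corticosterone replicate 3, as *Foxc1* and *Foxc2* no longer passed.

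Genes for partners and regulators of these proteins moved in both directions, with a median log2 fold change of 0.04. Of genes with a mean of at least 30, 30.6% had an adjusted p under 0.05 in either direction. Against 8.20% and 8.49% of all genes, 6 of the 22 were lower and 6 higher at that threshold. The split moved with the scaling, to 8 lower and 5 higher with upper-quartile scaling, and with libraries left out it was 4 to 5 lower and 4 to 7 higher. The ID proteins bind basic helix-loop-helix factors and keep them off DNA, and their genes moved apart. *Id2* had 229, 188 and 269 normalized counts with vehicle and 513, 540.1 and 477 with corticosterone, and it rose by 1.17 on the log2 scale (SE 0.11, limma adjusted p = 7.4e-07). *Id3* rose by 0.91 (from 2415 ± 167 to 4529 ± 355 normalized counts) while *Id4* fell by 0.59 (from 2020 ± 207 to 1339 ± 56.8, SD, n = 3 each). *Hivep3*, whose product (also called Schnurri-3) promotes the breakdown of RUNX2 protein, rose by 0.73, from 325 ± 24.7 to 537 ± 24.6 normalized counts (SD, n = 3 each, limma adjusted p = 3.4e-06). The TLE corepressor genes were split. *Tle2* fell by 0.38 (limma adjusted p = 1.4e-04, 0.098 with no variance trend) and *Tle4* by 0.50 (limma adjusted p = 0.038, 0.11 in DESeq2). *Tle1* rose by 0.26 (limma adjusted p = 0.012, 0.078 with no variance trend). *Tle3* had a log2 fold change of 0.06 (limma adjusted p = 0.53). *Wwtr1*, which encodes the coactivator TAZ, was at 6871 and 7239 (log2 fold change 0.08, limma adjusted p = 0.34). *Zbtb16*, a zinc finger gene that glucocorticoids induce in many cells, had 0 reads in the 3 vehicle libraries and 6 to 7 reads in each corticosterone library. With 3 reads per library as the floor it was at least 2.36-fold higher.

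The bone target list held 22 genes that these factors bind or that mark the osteoblast programme, of which 21 were measured. At an adjusted p under 0.05, 12 were lower and 4 higher, against 8.20% and 8.49% of all genes. Of genes with a mean of at least 30, 30.6% passed in either direction. The median log2 fold change of the 21 was -0.35, and 7 were lower past both thresholds (1.40% of all genes). The 7 were *Bglap*, *Bglap2*, *Ifitm5*, *Panx3*, *Pth1r*, *Ibsp* and *Tnfrsf11b*. *Bglap2*, which with *Bglap* encodes osteocalcin, went from 319 to 91.6 normalized counts, but 95.2% of its 31-base words are shared with transcripts of other genes, so counts of this pair are uncertain. *Panx3*, a channel gene that is a known target of RUNX2 and SP7, had 103, 172 and 125 normalized counts with vehicle and 46.0, 46.4 and 65.2 with corticosterone. It fell by 1.33 on the log2 scale (SE 0.20, limma adjusted p = 1.4e-04). *Smpd3*, a sphingomyelinase gene needed for mineralisation, fell by 0.72, from 533 ± 91.4 to 322 ± 24.8 (SD, n = 3 each).

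Target genes did not all fall. *Spp1*, the osteopontin gene, rose by 0.23 from already high levels (log2 fold change, limma adjusted p = 6.15e-04), and *Fgfr2*, a receptor gene of osteoprogenitors, rose by 0.23 (limma adjusted p = 6.1e-04). *Dmp1*, an osteocyte matrix gene, was level at 599 and 622 normalized counts (log2 fold change 0.05, 95% confidence interval -0.07 to 0.18), and *Mmp13*, the collagenase gene, at 2904 and 3182 (0.13, -0.03 to 0.30). With no variance trend, the adjusted p was 0.055 for *Panx3*, 0.056 for *Ibsp*, 0.069 for *Smpd3*, 0.11 for *Spp1* and 0.12 for *Fgfr2*. *Spp1* also did not pass with upper-quartile scaling (0.073), nor *Fgfr2* with quantile normalization (0.13). *Ifitm5* had an adjusted p of 0.055 without vehicle replicate 3. Without that library, *Fgfr3* and *Col10a1* also no longer passed, leaving 2 higher genes.

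**Figure D5:**
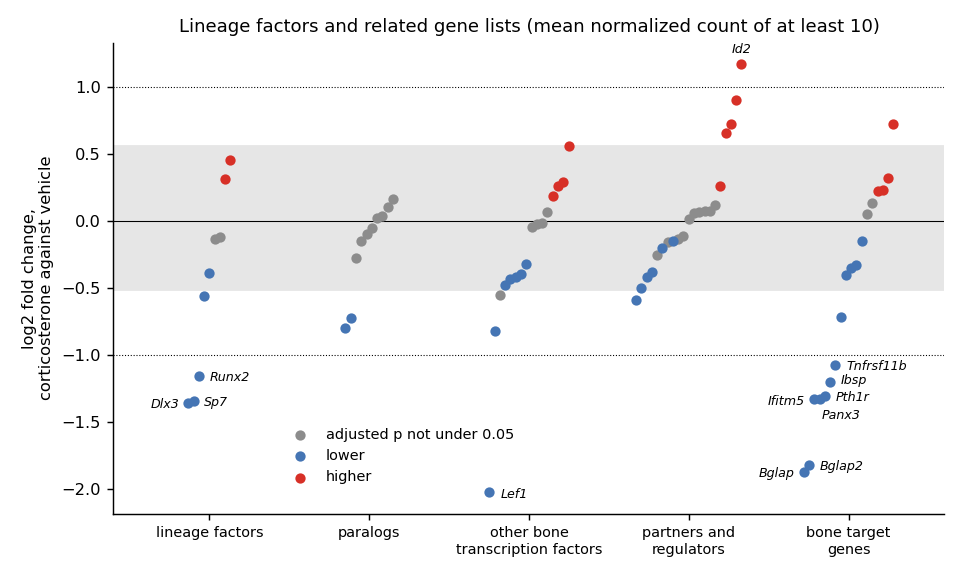
Log2 fold change of corticosterone against vehicle (y axis) for genes of 5 lists whose mean normalized count was 10 or more, with grey points for genes whose limma adjusted p was not under 0.05 and the genes past both thresholds named. The grey band holds the middle 90% of all genes with a mean of at least 30 and runs from -0.51 to 0.56, and genes under the mean of 10, *Zbtb16* among them, are not drawn.

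Markers of cell types were read beside these results. All 7 osteoblast markers were measured, and all also belong to the bone target list, in which 4 other genes were higher. Their summed level, mostly *Col1a1* and *Col1a2*, was 1385099 to 1434309 with vehicle and 1165603 to 1224281 with corticosterone. Against 8.20% of all genes, all 7 markers were lower at an adjusted p under 0.05. Of these, *Col1a1* (log2 fold change -0.15) did not pass without vehicle replicate 1 or 3 or without corticosterone replicate 1 or 2, nor with a pseudocount of 0.01, a minimum mean of 10, quantile normalization or no variance trend. *Alpl* did not pass without vehicle replicate 2 or 3, without corticosterone replicate 3 or with no variance trend, and *Ibsp* did not with no variance trend. Of 7 chondrocyte markers, 5 were measured and 4 were lower (*Sox9*, *Sox5*, *Sox6* and *Col2a1*), with a sum of 4059 to 4336 with vehicle and 3159 to 3249 with corticosterone, while *Matn1* was near 0. *Sox9* did not pass with any library but vehicle replicate 2 left out, and *Sox6* did not in 4 of the 6 cases, those without vehicle replicate 2 or 3 or corticosterone replicate 1 or 3. Neither passed with no variance trend, nor did *Sox9* in DESeq2 with the block. The sum of 3 measured adipocyte markers (of 6) was 302 to 403 with vehicle and 320.3 to 322 with corticosterone. Within it *Fabp4* rose from 14.8 to 121 normalized counts and *Cebpa* fell from 326 to 199, while *Plin1* was at 0 in 5 of 6 libraries. Of 7 markers of macrophages and osteoclasts, 5 were measured, with a sum of 1848 to 2013 and then 1456 to 1521 that was nearly all *Ctsk*, and *Acp5* and *Calcr* were at or near 0. The 2 measured muscle markers (of 6) summed to 15.4 to 23.9 and then 21.4 to 23.0, and the 3 measured endothelial markers (of 5) to 0 to 10.5 and then 1.07 to 12.8. None of these 5 genes passed the test with limma, edgeR or DESeq2, and 0 had an unadjusted p under 0.05. The part of other cell types or states in the changes of the 9 genes was not tested.

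The genes whose pattern over the 6 libraries was most like that of *Runx2*, by Pearson's r of log2 values among 10557 genes with a mean of at least 100 normalized counts, were *Clec11a*, *Lum*, *Igsf10*, *Sdc2* and *Klhdc10*. Their r ran from 0.9987 to 0.9996. This is a description over 6 libraries in 2 treatment groups, and 6.74% of those genes had an r over 0.95. All 5 were lower with corticosterone, by log2 fold changes from -1.92 (*Lum*, lumican, a matrix proteoglycan) to -0.79 (*Klhdc10*).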

How the data were processed

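RNA-seq libraries were made from 3 vehicle and 3 corticosterone cultures, described as biological replicates, and grouped by the sample labels. The genome build in the submitters' processing notes is mm10, while the aligner, the counting tool and its strand setting are not given in the sources used here. For each gene and library the authors deposited 1 value, named FPKM. The authors made these signal values by dividing read counts by 1 size factor per library, as the values show: in each library 100% of them are whole multiples (tolerance 0.01) of the inverse of a median-of-ratios size factor. They carry no correction for gene length. They are called normalized counts here, and the reads were recovered from them. The lowest of the 24016 gene means was 0.257.

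The main test was limma 3.58.1 in R 4.3.3 (lmFit, eBayes with a variance trend) on log2(value + 0.1). A minimum mean of 0.1 removed no gene. P-values had Benjamini-Hochberg adjustment over all genes. This design assumed a normalized unit such as FPKM and was kept. Fold changes of genes with 0 reads in some libraries are unreliable on this scale. *Pecam1* had means of 2.43 with vehicle and 2.80 with corticosterone but a log2 fold change of 2.52. *Tek* had means of 1.60 and 2.56 but a log2 fold change of -0.94. The study's thresholds were used: 0.05 for the adjusted p and 1 for the size of the log2 fold change. Single genes and the 5 ratios were also compared by two-sided exact permutation tests. Alternatives were pseudocounts of 1 and 0.01, a minimum mean of 10 and none, the replicate number as a block, a robust prior variance, a fit without the variance trend, upper-quartile, same-total and quantile scaling, edgeR 4.0.16 (quasi-likelihood, TMM) and DESeq2 1.42.0 on the recovered reads with and without the block, and each library left out in turn. The fits were tested on simulated counts. Intervals from reads and the floor of 3 reads cover counting error only.

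The 9 genes and all gene lists were chosen with earlier results of these data known. Named genes were the 9, any gene of the lists (first those past both thresholds, then those with high means), genes overlapping the 9, and the 5 genes most like *Runx2*. Listed genes that were not measured were not analysed here. Single-gene results of some listed genes are not reported here. GENCODE's GRCm38 annotation gave symbols and coordinates for 23983 identifiers. Passages are labelled both 4 to 10 and 6 to 12. Python 3.11.15 with pandas 2.3.3 and matplotlib 3.10.9 drew the figures.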

Additional observations from a re-analysis of the deposited data

How the results depend on the processing

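*Runx2*, *Sp7*, *Dlx3* and *Dlx5* kept their direction and an adjusted p under 0.05 in all 14 alternatives and with each of the 6 libraries left out, and none of the 9 genes or 5 ratios reversed. Without the variance trend, the count of the 9 genes higher at an adjusted p under 0.05 went from 2 to 0. With single libraries left out it ran from 1 to 2, being 1 without vehicle replicate 1, vehicle replicate 3 or corticosterone replicate 3. The count of partner genes higher past both thresholds was 2 and became 1 with a mean of at least 10, with edgeR and with DESeq2, the last both with and without the block, since *Zbtb16* was then not fitted or had no adjusted p. The count of other bone transcription factors lower past both thresholds ran from 1 to 2 with libraries left out, being 2 without corticosterone replicate 3. Replicates with the same number did not deviate together (r from -0.044 to 0.023 over 13880 genes), so the numbers do not show pairs. With the replicate block in limma, 3 of the 9 genes were lower past both thresholds and 0 higher, as without it, while over all genes 294 were lower and 297 higher, against 337 and 331. Upper-quartile scaling called 2595 genes lower and 1349 higher at an adjusted p under 0.05 and scaling to the same total 2521 and 1703, against 1970 and 2040. DESeq2 with the block called 1254 lower and 1536 higher, and limma with no variance trend 760 and 873. Without that trend, genes lower and higher at an adjusted p under 0.05 were 5 and 0 among other bone transcription factors, 3 and 4 among partners and 7 and 0 among target genes, against 7 and 4, 6 and 6, and 12 and 4. Genes at 3 reads or fewer could not be compared at this depth.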
